A study of Mus musculus with 4 samples.

Results

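The Dlk1-Meg3 domain is an imprinted cluster on mouse chromosome 12, and its CpG methylation was followed here in liver DNA. Its members were the cytosines with at least 10 reads in every mouse that lay in the RefSeq gene bodies of Dlk1, Meg3, Rtl1, Rian and Mirg or within 15 kb on either side of one of them. These were 208 cytosines of the 1276684 that all 4 mice shared, and they fell in 3 windows of the mm10 build, at chr12:109437485-109478336, chr12:109525996-109676716 and chr12:109719981-109764458. The gene features on which the windows rest were chr12:109452485-109463336 for Dlk1, chr12:109540996-109571729 for Meg3, chr12:109564900-109604418 for Rtl1, chr12:109603945-109661716 for Rian and chr12:109734981-109749458 for Mirg, with Rtl1 on the minus strand and the others on the plus strand. Only position and coverage chose the members, and no methylation value did.

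Liver DNA from 4 male mice aged 6 to 8 weeks and fed a normal diet was profiled by enhanced reduced representation bisulfite sequencing (ERRBS), in which MspI cuts the DNA at CCGG, short fragments are kept, and bisulfite turns unmethylated but not methylated cytosines into bases read as T. Mixed-1 and Mixed-2 had a mixed background that is not defined further, to which C57BL/6J contributed, and B6-1 and B6-2 were C57BL/6. The groups therefore share part of their ancestry. Each mouse was 1 replicate of its group. The 2 groups were housed at different institutions, so the effects of background and of housing cannot be told apart. The deposited coverages added up to between 60654199 and 99215153 per mouse over all listed cytosines, where a read counts once at each cytosine it spans, with a mean coverage of 44.2 (Mixed-1), 49 (Mixed-2), 63.7 (B6-1) and 60.1 (B6-2). Liver was checked at the starts of marker genes, where 11 cytosines of Apoa2, an apolipoprotein of hepatocytes, had a mean level of 0.651% and 5 cytosines of Fgb, a fibrinogen chain, one of 30%, while 1 cytosine of the endothelial gene Pecam1 had 88.6%. At the start of Alb, which encodes serum albumin, no cytosine was shared by all mice.

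In an imprinted domain, genes are expressed from the chromosome of one parent only. In this domain Dlk1 and Rtl1 are expressed from the paternal chromosome, and the noncoding RNAs Meg3, Rian and Mirg, which host many microRNAs and small nucleolar RNAs, from the maternal one. The intergenic control region upstream of Meg3 carries DNA methylation on the paternal chromosome only, and methylation that differs between the parental chromosomes is also known at the Meg3 promoter and in the last exon of Dlk1. A site methylated on one of the chromosomes in every cell would read near the middle of the scale, but the reads carry no parental origin here. One methylated chromosome and a mixture of cells cannot be told apart.

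The stretches on which the results turn are printed below from the plus strand of the mm10 reference (RefSeq, GRCm38.p6), 5′ to 3′, with every CpG that was measured in all 4 mice in capitals. The first is a hypomethylated CpG-dense stretch between the 2 curated starts of Dlk1 (109452823 and 109453455), at chr12:109453330-109453409. The second lies in the last exon of Dlk1, at chr12:109459979-109460029. The next are the methylated stretch far upstream of Meg3, at chr12:109526668-109526747, and the 2 intermediate stretches on either side of the Meg3 start, at chr12:109540581-109540655 and chr12:109541767-109541816. The last are an intermediate stretch in an intron of Rian, at chr12:109614553-109614716, and the weakly methylated stretch just past the end of Mirg, at chr12:109749836-109749950.
Dlk1 start: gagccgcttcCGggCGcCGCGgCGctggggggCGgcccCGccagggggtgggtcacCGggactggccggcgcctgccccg
Dlk1 last exon: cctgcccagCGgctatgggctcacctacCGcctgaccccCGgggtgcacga
Meg3 upstream: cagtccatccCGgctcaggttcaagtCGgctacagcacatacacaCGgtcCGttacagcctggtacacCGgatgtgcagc
Meg3 start, upstream side: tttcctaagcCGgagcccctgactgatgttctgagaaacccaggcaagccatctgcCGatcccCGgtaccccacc
Meg3 start, downstream side: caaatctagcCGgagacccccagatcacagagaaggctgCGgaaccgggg
Rian intron: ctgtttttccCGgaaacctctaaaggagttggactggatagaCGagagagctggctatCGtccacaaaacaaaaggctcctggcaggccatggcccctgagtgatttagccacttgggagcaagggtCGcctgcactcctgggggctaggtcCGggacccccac
Mirg downstream: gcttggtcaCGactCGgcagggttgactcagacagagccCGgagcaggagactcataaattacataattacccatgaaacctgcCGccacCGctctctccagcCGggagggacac

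The methylation level of a cytosine is the percent of C among the C and T reads over it. The mean level over the 208 cytosines was 39.6% (Mixed-1), 39.3% (Mixed-2), 38.9% (B6-1) and 39.3% (B6-2), or 39.3% ± 0.271 (SD, n = 4). Over all shared cytosines of the genome it was 28.5% ± 0.146, so the domain was higher by 10.8 points, and by 10.5 to 11 points in the individual mice. All 4 mice showed this direction. The two-sided exact sign-flip test gave p = 0.125, and 4 mice allow no smaller value.

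The mean hides 3 kinds of stretch. By their mean over the mice, 105 cytosines were hypomethylated (below 20%), 66 hypermethylated (above 80%) and 37 intermediate. The class was the same in every mouse for 175 of the 208 cytosines, or 84.1%, made up of 100 low, 24 intermediate and 51 high ones. Of the 105 hypomethylated cytosines, 50 lay upstream of Dlk1, 53 around its start and 2 past the end of Mirg, and none lay in the Meg3, Rtl1 or Rian regions. Hypomethylated cytosines had a median of 15 CpGs in the 201 bp around them, against 6 for both other classes. Only 1 of the 208 cytosines lay in sequence that the reference masks as a repeat.

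**Figure D1:**
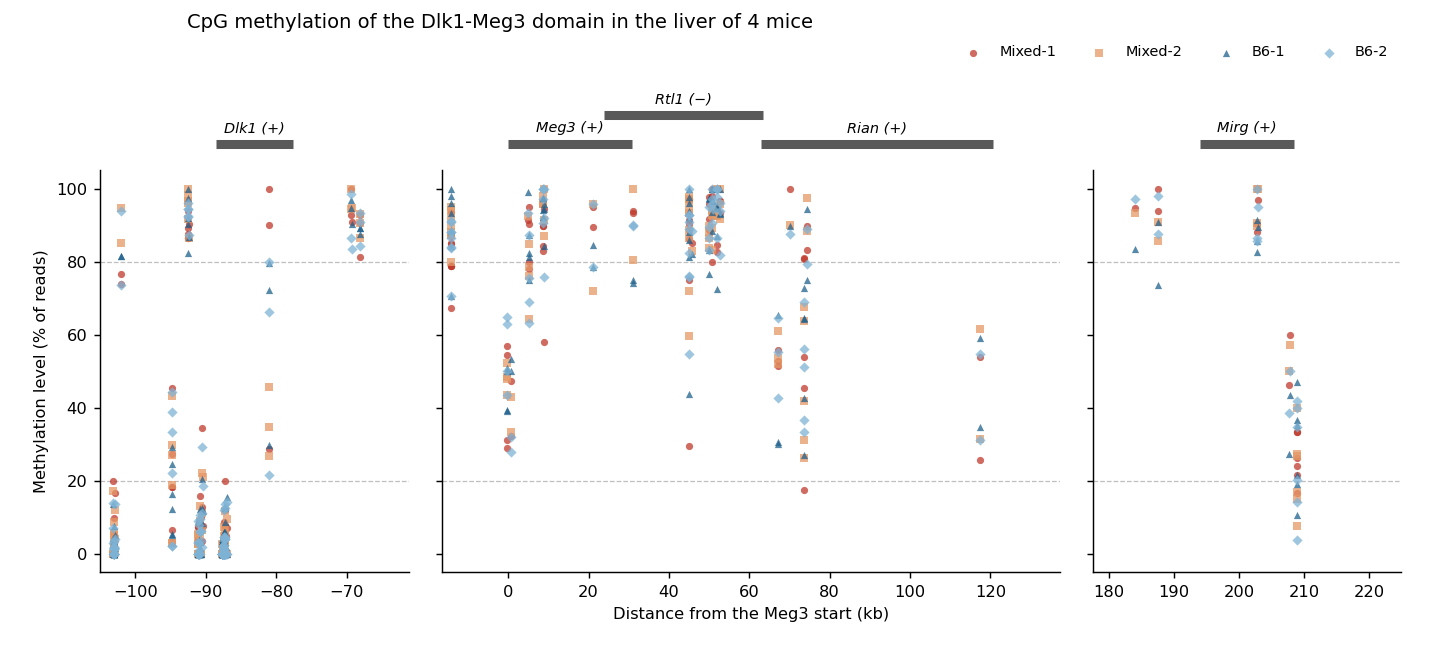
Methylation level in percent of reads (y axis) of the 208 cytosines against their distance in kb from the Meg3 start (x axis), with 1 point per cytosine and mouse, the gene bodies drawn as bars above with their strand, and dashed lines at 20 and 80%. The cytosines around the Dlk1 start lie near 0 in all 4 mice, and by their means the 16 in the Rtl1 exon lie above 80%, while all 6 at the Meg3 start, 10 of 13 in Rian and 4 of 6 past the end of Mirg lie between the dashed lines.

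The genes differed in level far more than the mice did. The 124 cytosines nearest to Dlk1 had a mean of 14.7% ± 0.345 (SD, n = 4), those of Meg3 (30) of 78.8% ± 1.29, those of Rtl1 (26) of 89.7% ± 0.11, those of Rian (13) of 58.8% ± 1.47 and those of Mirg (15) of 59.1% ± 2.4. The order of these levels was Dlk1, then Rian and Mirg, then Meg3, then Rtl1. The means of Rian and Mirg did not differ beyond the spread of the mice, but they joined different classes. Rian had 10 intermediate, 3 hypermethylated and 0 hypomethylated cytosines, and Mirg 6, 7 and 2. A region was counted as a start region within 1000 bp of a curated RefSeq start, otherwise as exon, intron or flank of the nearest gene. Only Dlk1 and Meg3 had shared cytosines in a start region. Hypomethylated cytosines of Dlk1 numbered 53 in its start region and 50 in its upstream flank. The order therefore holds for the cytosines read and does not compare like parts of the genes.

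Dlk1 encodes a transmembrane protein related to the Notch ligands that is expressed mainly before birth. In its start region, 53 cytosines of 33 CpGs at chr12:109453340-109453968 had a mean level of 2.12% (Mixed-1), 1.47% (Mixed-2), 2.11% (B6-1) and 1.73% (B6-2). The highest of the 53, at the end of the stretch (109453968, minus strand), reached 11.6% on average. All 53 were hypomethylated by their mean, and the highest value in a single mouse was 20%, at 109453668 in Mixed-1. Among the cytosines there with 10 reads in some mice only, values of up to 41.7% in a mouse were found, as at 109453884 in B6-1. The coverages of the 53 cytosines added up to 2185 in Mixed-1 and 2474 in B6-1, and the Wilson 95% intervals of the pooled share ran from 1.19 to 2.27% and from 1.54 to 2.65%. Such intervals cover counting error alone and are too narrow, because a read that spans several cytosines is counted at each of them and PCR copies of a molecule are counted as separate reads.

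The Dlk1 upstream flank held 62 cytosines, with means of 15.9% (Mixed-1), 16.9% (Mixed-2), 15.1% (B6-1) and 17% (B6-2). These means join stretches of opposite state. At the far end, 23 cytosines at chr12:109437821-109438080 had a level of 2.61, 2.94, 2.09 and 2.48% (Mixed-1, Mixed-2, B6-1, B6-2), and 25 cytosines at chr12:109449906-109450527 had 5.04, 4.28, 3.42 and 5.08%. Between them, 6 cytosines at chr12:109448404-109448648 had 89, 94.9, 91.5 and 92.8%. A further 6 cytosines at chr12:109446143-109446258 had 19.8, 20.8, 15.5 and 23.8%, and ranged from 3.38% at the first to 40.6% at 109446250 on the minus strand. Within the flank, hypomethylated and hypermethylated stretches therefore alternated in the same order in every mouse.

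The last exon of Dlk1 held 3 shared cytosines, all on the minus strand, at chr12:109459989-109460019. Their mean level was 72.9% (Mixed-1), 35.8% (Mixed-2), 60.6% (B6-1) and 55.9% (B6-2). The 2 mixed mice were the extremes and the C57BL/6 mice lay between them, so the groups overlapped. The coverage in Mixed-1 was only 10 to 14 reads per cytosine, and the pooled share over its summed coverage of 37 was 70.3% with a Wilson interval of 54.2 to 82.5%. The summed coverage of 76 in Mixed-2 gave 35.5% with an interval of 25.7 to 46.7%. A single read can span all 3 cytosines, so no difference between these mice is read from the intervals.

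The 3 cytosines of this exon also differed from each other over 30 bp. The one at 109459989 had 90% (Mixed-1), 45.8% (Mixed-2), 79.7% (B6-1) and 80% (B6-2). The one at 109460019 had 28.6, 26.9, 29.7 and 21.7% in the same order. The cytosine nearest the 3′ end was thus the lowest of the 3 in each mouse, and it was the one with the smallest spread among mice. The stretch is coding sequence of exon 5 in 1 of the 4 curated coding transcripts of Dlk1, and no exon of the other 3 holds all of it. Beyond the gene, 6 cytosines at chr12:109471621-109472845 were hypermethylated, with 91.5% (Mixed-1), 93.2% (Mixed-2), 91.3% (B6-1) and 89.5% (B6-2).

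Meg3 is a maternally expressed long noncoding RNA. Its first curated start lies at 109540996, and the start region around it held 6 shared cytosines, whose mean level was 41.9% (Mixed-1), 44.7% (Mixed-2), 47.1% (B6-1) and 46.9% (B6-2), or 45.1% ± 2.44 (SD, n = 4). All 6 were intermediate by their mean, between 36.7 and 51.2%. On the upstream side, 4 cytosines had 42.9% (Mixed-1), 48% (Mixed-2), 44.8% (B6-1) and 55.3% (B6-2). On the downstream side, 2 cytosines had 39.8, 38.1, 51.7 and 30%, from a coverage of 15 to 31 reads. The Wilson intervals of the pooled share there overlapped even between the extremes, B6-1 (34.8 to 68%) and B6-2 (19.1 to 43.8%). The C57BL/6 means were both above the mixed means over all 6, but the 2 sides changed the order of the mice. The difference of 3.72 points between the groups had p = 0.333 in the two-sided exact permutation test, the smallest p that 2 mice against 2 allow.

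The Meg3 start region was higher than the Dlk1 start region by 43.3 points on average, by 39.7 points in the least and 45.2 points in the most different mouse (exact sign-flip test, p = 0.125). The shared cytosines of the 2 start regions did not overlap in level in any mouse. Those with 10 reads in some mice only did, as in B6-1 with 41.7% at 109453884 by Dlk1 and 27.8% at 109541300 by Meg3. The annotation holds 134 CpGs within the Dlk1 start region and 69 within that of Meg3, and of these 33 and 5 were measured in all 4 mice.

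Meg3 has a second curated start at 109545398, in whose start region 5 cytosines had a mean of 86.9% (Mixed-1), 79.2% (Mixed-2), 85% (B6-1) and 77.7% (B6-2). By their means 2 of the 5 were hypermethylated and 3 intermediate, at 76.1 to 77.5%, so the levels were higher than the 36.7 to 51.2% of the first start, 4402 bp away. Further along, 7 cytosines in exons of Meg3 had 84.1% (Mixed-1), 91.5% (Mixed-2), 91.3% (B6-1) and 91.1% (B6-2). In an intron, 2 cytosines had 97.2, 95.7, 90 and 96%. Mixed-1 was the lowest in the exons and the highest in the intron. The intron cytosines and the exon cytosines next to them form 1 stretch of 7, at chr12:109549676-109549827, with 85.5, 94.8, 93.7 and 93.6%.

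Upstream of Meg3, between 1 and 15 kb from the start, 8 cytosines of 5 CpGs at chr12:109526678-109526737 were the only shared ones. Their mean level was 81.8% (Mixed-1), 89.2% (Mixed-2), 89.9% (B6-1) and 85.4% (B6-2). The lowest of the 8 was the first, at 109526678, with 76.8% on average, and the highest was 109526719 on the minus strand, with 94.7%. Both strands were read at 3 of these CpGs, with a median difference between strands of 2.68 points. This stretch was higher than the Dlk1 start region by 84.7 points, from 79.6 to 87.8 points in the individual mice (exact sign-flip test, p = 0.125). A predicted gene on the minus strand, Gm34081, covers all 8 of these cytosines.

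The intermediate state returned just outside the window. Between 204 and 284 bp beyond the 15 kb flank of Meg3, 4 cytosines shared by all mice at chr12:109525712-109525792 had a mean level of 57.9% (Mixed-1), 47.2% (Mixed-2), 48.4% (B6-1) and 43.5% (B6-2), each with a coverage of at least 21. The gap to the first methylated cytosine inside the window was 886 bp. The sequence of these cytosines, at chr12:109525702-109525802, is shown for its nearness to the window edge, with the measured CpGs in capitals.
Beyond the Meg3 flank: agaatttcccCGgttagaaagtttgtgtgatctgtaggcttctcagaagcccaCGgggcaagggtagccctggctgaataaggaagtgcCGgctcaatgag

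The motif TGCCGC, which the imprint-keeping protein ZFP57 binds when its CpG is methylated, was searched on both strands. The windows held 29 copies, 10 of them between 1 and 15 kb upstream of Meg3 and 5 of those 10 within chr12:109528296-109528444, between 12552 and 12700 bp upstream of the start. That cluster is printed at chr12:109528286-109528454 with the motif in capitals, because it marks a part of the upstream region that the assay did not reach. It holds 23 CpGs and 0 CCGG sites, and none of its CpGs had 10 reads in any mouse. Over the upstream stretch as a whole, 5 of the 242 CpGs had 10 reads in a mouse, so nothing can be said of the methylation of the rest.
TGCCGC cluster: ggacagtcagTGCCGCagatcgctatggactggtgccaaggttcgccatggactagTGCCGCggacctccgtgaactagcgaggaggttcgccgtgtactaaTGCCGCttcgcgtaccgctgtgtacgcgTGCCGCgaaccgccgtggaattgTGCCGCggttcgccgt

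A shared cytosine lay in a copy of the motif 3 times. The level was 1.27, 1.61, 4.67 and 0% at the copy in the Dlk1 start region, 100, 89.3, 100 and 100% at the one in the Rtl1 exon and 16.7, 15.1, 19.1 and 14.3% at the one past Mirg (Mixed-1, Mixed-2, B6-1, B6-2). By its mean, the cytosine was hypomethylated at the copies in the Dlk1 start region and past Mirg and hypermethylated at the one in the Rtl1 exon. Past Mirg, 4 of the 6 shared cytosines were intermediate by their mean. Of the 500 bp tiles of the genome with a shared cytosine, 12.3% held the motif, against 8 of 44 tiles, or 18.2%, in the domain, which is a description of this sequence and not of binding.

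**Figure D2:**
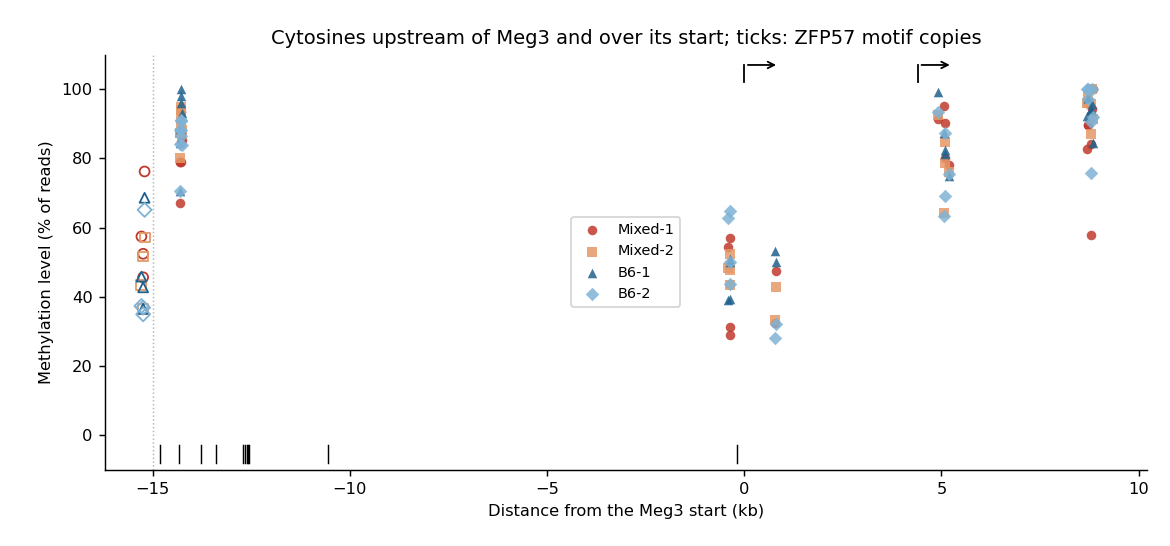
Methylation level in percent of reads (y axis) of single cytosines in each mouse against the distance in kb from the first Meg3 start (x axis). Open symbols lie outside the 15 kb flank (dotted line), arrows mark the 2 curated starts, and ticks at the bottom mark copies of TGCCGC. Levels near the middle of the scale are seen beyond the flank and at the first start, and levels above 60% in all mice but 1 value of 57.9% at the other stretches.

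Rtl1 is a retrotransposon-derived coding gene that is expressed from the paternal chromosome and overlapped by antisense microRNAs. In its exon, 16 cytosines at chr12:109590860-109593717 had a mean level of 93.4% (Mixed-1), 91.8% (Mixed-2), 91.8% (B6-1) and 93% (B6-2), or 92.5% ± 0.841 (SD, n = 4). All 16 were hypermethylated by their mean over the mice. Past its curated end, by 2538 to 3292 bp and within a longer predicted transcript, 10 cytosines had 83.7, 86.7, 86 and 84.3%. Among them, the one at 109586010 on the minus strand stood apart from its neighbours, with 29.4% (Mixed-1), 59.7% (Mixed-2), 43.7% (B6-1) and 54.7% (B6-2), while the first of the stretch, at 109585901, had 97.1 to 100%.

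Of the 42 microRNA precursors that RefSeq places in the windows, 2 held a shared cytosine. Mir433 lies within the Rtl1 exon at chr12:109591715-109591838, and its 4 cytosines had a mean of 93.1% (Mixed-1), 89.8% (Mixed-2), 95.5% (B6-1) and 95.9% (B6-2). Mir673 lies past the end of Meg3 at chr12:109571990-109572080, and its cytosine had 93.3% (Mixed-1), 100% (Mixed-2), 75% (B6-1) and 90% (B6-2). Both precursors were hypermethylated by their mean, and the Mir673 value of B6-1, an intermediate level, was the lowest of the 8. The Mir673 cytosine had only 15 (Mixed-1), 10 (Mixed-2), 16 (B6-1) and 20 (B6-2) reads. The mature sequences that hold a measured CpG are shown with the seed (bases 2 to 8) in capitals, from RefSeq.
miR-433-5p: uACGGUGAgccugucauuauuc
miR-433-3p: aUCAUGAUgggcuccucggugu
miR-673-3p: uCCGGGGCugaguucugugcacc

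The CpG lay at bases 3 and 4, inside the seed, in miR-433-5p and miR-673-3p, and at bases 17 and 18 in miR-433-3p. The seeds of the 3 microRNAs differ. At the seed CpG of miR-433-5p the level was 98.1% (Mixed-1), 94% (Mixed-2), 100% (B6-1) and 97.1% (B6-2). At the CpG of miR-433-3p it was 80, 83.3, 93.5 and 95.8% in the same order. Both C57BL/6 mice were higher than both mixed mice at the latter. The levels of the strains did not overlap at 24% of the members and at 16.6% of all cytosines. The Meg3 downstream flank, which holds Mir673, had 2 cytosines in all, with 93.5, 90.2, 74.5 and 89.8%.

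Rian is a maternally expressed RNA that hosts small nucleolar RNAs in its introns. Its introns held 13 shared cytosines with a mean level of 60.8% (Mixed-1), 58.9% (Mixed-2), 57.7% (B6-1) and 57.7% (B6-2). By their means over the mice, 10 were intermediate and 3 hypermethylated. The stretch printed above, with 5 cytosines at chr12:109614563-109614706, had 55.7% (Mixed-1), 46.1% (Mixed-2), 54.3% (B6-1) and 49.3% (B6-2). That mean joined unlike neighbours, since 109614611 had 80.6, 67.6, 72.7 and 69% and 109614706, on the other strand, 17.5, 31.2, 27.1 and 33.3%. Further on, 2 cytosines at chr12:109615318-109615438 had 86.5, 92.9, 84.7 and 84.1%. A second stretch of 3 cytosines, at chr12:109608166-109608202, had 53.4, 55.6, 42 and 54.2%, and another of 2, at chr12:109658461-109658508, had 39.7, 46.5, 47 and 42.9%. Intermediate levels thus recurred at 3 places along Rian in all 4 mice.

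Mirg is the last of the maternally expressed noncoding RNAs of the domain and carries many microRNAs. Its flank and its exon were methylated, with 96.1% (Mixed-1), 90% (Mixed-2), 82.6% (B6-1) and 94.2% (B6-2) over 3 upstream cytosines. Over 4 exon cytosines the level was 93.8, 95, 87.3 and 91.8%. In its last intron, 2 cytosines were intermediate, with 53.1, 53.6, 35.4 and 44.2%, from a coverage of 10 to 26 reads. Past its end, by 388 to 482 bp, 6 cytosines on the minus strand had 25.9% (Mixed-1), 22.3% (Mixed-2), 28.4% (B6-1) and 25.8% (B6-2). The level of these 6 was thus lower than that of the exon in each mouse. Their means over the mice ranged from 37.2% at 109749851 to 10.9% at 109749940. Nearer the end of Mirg, the cytosine at 109749684 had 10 reads in some mice only, with 90% (Mixed-2), 91.7% (B6-1) and 93.3% (B6-2). Those at 109749875 and 109749920, within the stretch and also read in some mice only, had 11.5 to 28.6%.

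**Figure D3:**
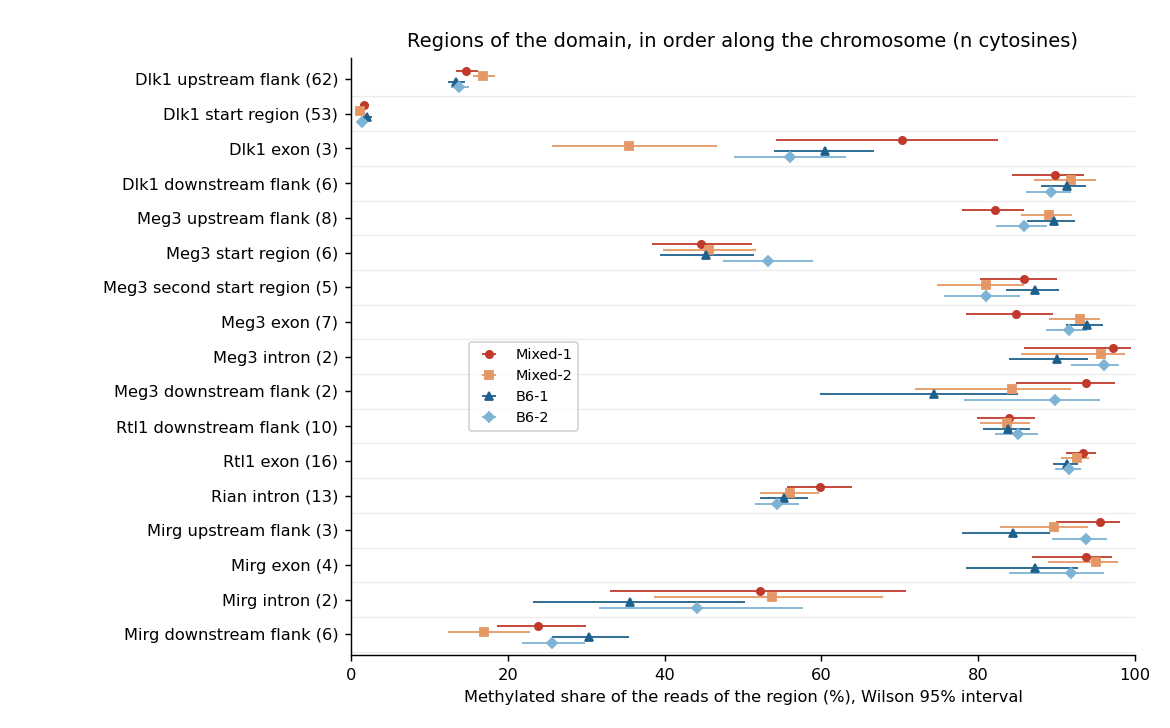
Methylated share of the coverage summed over each region in percent (x axis), with Wilson 95% intervals that are too narrow where reads span several cytosines, for the 17 regions of the domain in order along the chromosome (y axis, number of shared cytosines in brackets) and 1 symbol per mouse. The Dlk1 start region lies near 0 and 10 regions have a mean above 80%, while the Dlk1 exon, the Meg3 start region, the Rian intron and the Mirg intron lie between.

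Among the 17 regions, 10 with 63 cytosines had a mean above 80%, and 4 with 24 cytosines had one between 40 and 60%. The start regions of Rtl1, Rian and Mirg held 24, 11 and 25 CpGs, and none of these had 10 reads in any mouse. Where both strands of a CpG were read in every mouse, at 39 CpGs, the strands differed by a median of 0.896 points and by at most 11.6 points. Of these 39, 13 lay in the Dlk1 upstream flank and 20 in the Dlk1 start region, where most cytosines were hypomethylated. The 1 at the first Meg3 start differed by 6.41 points and the 1 at the second by 9.01 points. No such CpG lay in the Dlk1 exon, in the Rian or Mirg introns or past Mirg, so the strands were not compared there. Tiles of 500 bp with at least 3 shared cytosines and a mean between 30 and 70% in every mouse numbered 3 of 23 in the domain, or 13%, at the Meg3 start and at 2 places in Rian introns, against 9% of such tiles in the genome.

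The share of intermediate cytosines was 18.3% (Mixed-1), 17.3% (Mixed-2), 18.3% (B6-1) and 19.7% (B6-2), or 18.4% ± 0.991, against 12.2% ± 0.276 over all shared cytosines. The difference was 6.23 points, from 5.56 to 7.39 points in the mice (exact sign-flip test, p = 0.125). It fell to 2.48 points, and to 1.01 points in the lowest mouse, with a coverage of at least 20, and to 3.19 points with bounds of 35 and 65%. With bounds of 10 and 90% it was 13 points, and with all cytosines of each mouse 10.4 points. The share of hypermethylated cytosines was higher as well, at 31.2% against 22.5%, and that of hypomethylated ones lower, at 50.4% against 65.3%. Each direction held in all 4 mice.

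The domain was set beside 2 other imprinted regions taken by the same rule. The Gnas locus, taken from the gene Gnas alone, with 440 cytosines, had a mean level of 29.3% ± 1.91 and an intermediate share of 55.3%, and the difference in that share (domain minus Gnas) was -39.3 to -35.3 points. The Igf2-H19 and Kcnq1ot1 domains, with 226 cytosines together, had a mean level of 18% ± 0.285 and an intermediate share of 21%, with a difference (domain minus these) of -3.41 to -1.53 points. The domain had more hypermethylated cytosines than either, by 26.4 to 27.7 points and by 22.8 to 24.7 points. All of these differences had the same sign in the 4 mice (exact sign-flip tests, p = 0.125 each, the smallest possible).

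**Figure D4:**
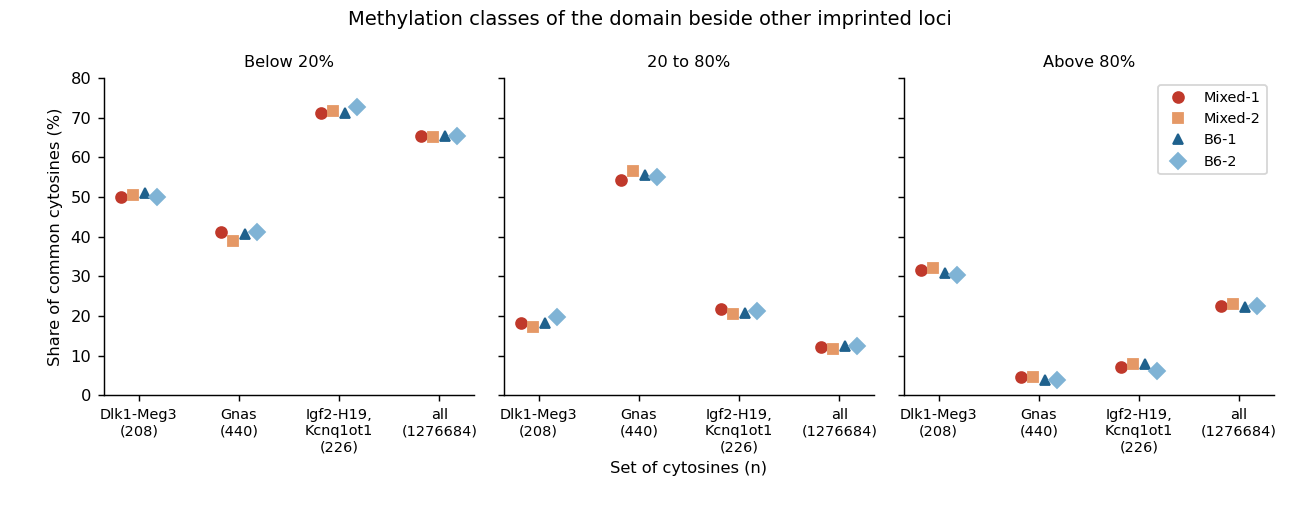
Share in percent (y axis) of cytosines below 20%, from 20 to 80% and above 80% (panels) in the Dlk1-Meg3 domain, the Gnas locus, the Igf2-H19 and Kcnq1ot1 domains and among all shared cytosines (x axis, with their number), with 1 symbol per mouse. The domain has the highest share above 80%, and Gnas the highest share from 20 to 80%.

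The strains differed little over the domain as a whole, and the direction depended on which cytosines were taken and how they were weighted. The mixed mice had a mean of 39.4% ± 0.175 (SD, n = 2), the C57BL/6 mice one of 39.1% ± 0.315 (n = 2), and the difference of -0.301 points (C57BL/6 minus mixed) was within the spread of the mice (two-sided exact permutation test, p = 0.667). With reads pooled over the cytosines the difference was 2.34 points, and with all cytosines of each mouse 3.09 points, each with p = 0.333 in the exact permutation test, the smallest possible. A logistic model with moderated overdispersion, fitted to all 1276684 shared cytosines, counted a cytosine as strain-variable where p, adjusted after Benjamini and Hochberg, was under 0.01 and the strain means lay at least 25 points apart. It called 0 of the 208 members, against 0.00548% of all cytosines. No member reached the 25 points, so the count would be 0 at any p. At an unadjusted p under 0.05 there were 4 members, or 1.92%, against 2.03% of all cytosines. At an adjusted p under 0.05 and 10 points the model called 0 members, against 0.0183%.

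The other tests differed in the number of small p-values. Fisher's exact test on the reads pooled by strain called 0 members, against 0.126% of all cytosines, and 9 at an unadjusted p under 0.05, or 4.33%, against 5.31%. Blocking on the replicate number, the model called 0 members, against 0% of all cytosines, and 0 at an unadjusted p under 0.05, against 0.552%. With 200 simulated differences of 50 points among 100000 cytosines, the model recovered 51.5% and, with the block, 0%, so a member that differs could be missed. The largest difference of a member was 18.5 points, a size that was not simulated, so the recovery at that size is not known.

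The levels of the 2 strains did not overlap at 50 members, or 24%, against 16.6% of all cytosines. At 21 of these the C57BL/6 mice were higher, or 10.1% of the members against 7.63% of all, and at 29 the mixed mice, or 13.9% against 8.95%. Cytosines at 0% in all mice cannot separate the strains, and hypomethylated cytosines made up 50.4% of the domain against 65.3% of all; their part in this share was not tested. The strain means differed by at least 10 points at 18 members, or 8.65%, against 6.41% of all cytosines, and by at least 25 points at 0 members, against 0.373%. The largest difference of a member was 18.5 points in size, and the median size was 2.23 points, against 0.764 points over all cytosines, with 90 members higher in the C57BL/6 mice, 92 higher in the mixed mice and 26 equal.

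The 3 members with the smallest p of the model lay at Dlk1, as did 124 of the 208 members, and none passed the correction. At 109449951 in the upstream flank, the level was 3.03% in Mixed-1, 5.41% in Mixed-2 and 0% in both C57BL/6 mice. At 109453668 in the start region, on the minus strand, it was 20% (Mixed-1), 4.76% (Mixed-2) and 0% in both C57BL/6 mice. At 109437886 in the upstream flank, also on the minus strand, it was 0% in both mixed mice, 4.25% in B6-1 and 7.14% in B6-2. All 3 had a mean below 20%. The unadjusted p was between 0.0366 and 0.0393 and the adjusted p was 1 for each in the limma-moderated model, and 0.623, 0.745 and 0.771 by Fisher's exact test after adjustment. The fourth with an unadjusted p under 0.05 was 109526695, on the minus strand in the methylated stretch upstream of Meg3, with 67.2% (Mixed-1), 80% (Mixed-2), 88.4% (B6-1) and 88.1% (B6-2). Both C57BL/6 mice were higher there, by 14.6 points on average (limma-moderated model, p = 0.0411, adjusted p = 1), and its adjusted p of 0.4 by Fisher's exact test was the smallest of the members.

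**Figure D5:**
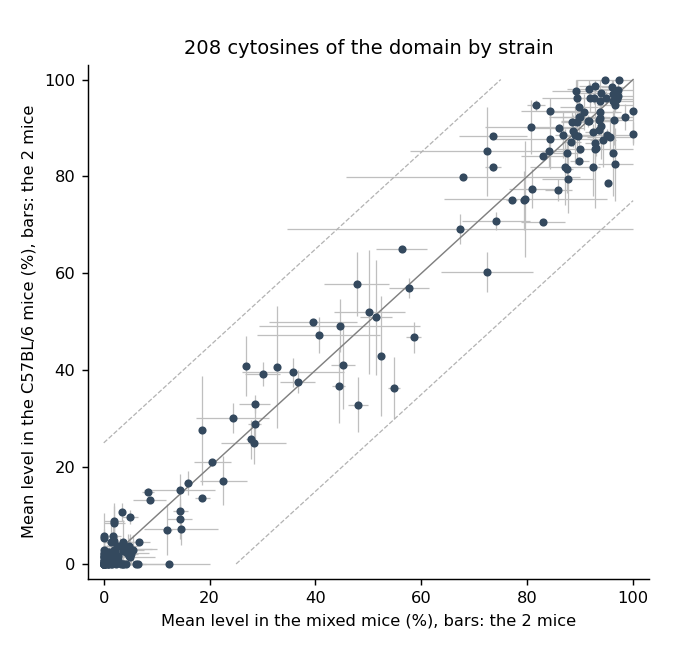
Mean level of the 2 C57BL/6 mice (y axis, percent) against that of the 2 mixed mice (x axis, percent) for the 208 cytosines, with bars from the lower to the higher mouse of each strain, a solid line of equal levels and dashed lines at a difference of 25 points. All points lie between the dashed lines.

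The files covered the domain sparsely. Of its 3135 reference CpGs, 169 were read in all mice, or 5.39%, against 4.69% of the CpGs of the genome, and a further 95 cytosines had 10 reads in some mice only, so that 68.6% of the cytosines seen in a mouse were shared, against 79.4% in the genome. Of the 95, 57 lacked in a mixed mouse and were present in both C57BL/6 mice, which were read more deeply. The median coverage of the members was 34 (Mixed-1), 40.5 (Mixed-2), 55 (B6-1) and 55 (B6-2), with 10 reads at the lowest. At 10 reads, a count of 0 methylated reads still allows a level of up to 30%.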

How the data were processed

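The authors digested liver DNA with MspI, selected fragments by size, converted them with bisulfite and sequenced single-end reads of 50 cycles. The methods of the study name BSMAP as the mapper, whereas the submitters' processing notes list Bismark, SAMtools and the mm10 build. Versions were not given in the sources used here. The files as deposited by the authors hold, for each CpG cytosine and strand with at least 10 reads in a mouse, the coverage as a count of reads without normalization. They also hold the percentages of C and of T reads as computed by the authors per mouse, with no pooling of mice.

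Methylated reads were computed as the coverage times the percentage of C. Cytosines were matched between mice by chromosome, position and strand, and the mm10 reference with RefSeq annotation placed them. Of the 1276684 shared cytosines, 1276597 lay on a CpG of the nuclear chromosomes and the remaining 87 on the mitochondrial genome. Regions followed curated RefSeq transcripts, and stretches were runs of cytosines with gaps of at most 500 bp, named where they held at least 5, with their highest and lowest cytosine. All 17 regions, the microRNA precursors with a shared cytosine and the 3 cytosines with the smallest strain p were named by rule. Stretches of fewer than 5 cytosines and the cytosines beyond the Meg3 flank were chosen after their values were seen. The members, lists and tests were chosen with earlier results of these data known.

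Quantities over mice were tested with two-sided exact sign-flip or permutation tests, whose smallest p is 0.125 over 4 mice and 0.333 for 2 against 2. Strain differences of single cytosines came from a logistic model whose overdispersion was moderated by limma 3.58.1 under R 4.3.3 (package data.table, version 1.17.8), with the prior taken from cytosines with a pooled level of 5 to 95% and Benjamini-Hochberg adjustment over all shared cytosines. The model was tested on simulated reads at real coverage. Python 3.11.15 with numpy 2.4.6, pandas 2.3.3, scipy 1.17.1 and matplotlib 3.10.9 gave the other values. The alternatives were a coverage minimum of 20, a coverage ceiling, merged strands, pooled reads, all cytosines of each mouse, other flanks, class bounds and start regions, leaving out each mouse, Fisher's exact test and a block on the replicate number. Bodies of curated transcripts, a flank of 16 kb and both Meg3 starts were added after the data were seen.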

Additional observations from a re-analysis of the deposited data

Results flagged for a closer look

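In the exons of Meg3, Mixed-1 stood apart from the other mice, with a mean level of 84.1% over 7 cytosines against 91.1 to 91.5%. The gap was 0.955 of the range of the 4 mice. The lowest of the 7 in Mixed-1 was 109549789, with 57.9% from 19 reads. There Mixed-2 had 87% from 23 reads, B6-1 94.4% from 71 and B6-2 75.9% from 87. The mean of each of the 17 regions and of the domain was looked at in this way, 18 groups in all, and chance singles out a mouse in about 1 of 20 such groups.

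At the Meg3 start, 11 further cytosines had 10 reads in both C57BL/6 mice but not in all 4 mice, and they entered none of the comparisons. They lay at chr12:109540275-109541316 and had a mean level of 43.9% in B6-1 and 48% in B6-2, where the 6 shared cytosines had 47.1% and 46.9%. Single cytosines among the 11 spread more widely, from 27.8 to 77.3% in B6-1 and from 26.3 to 84.6% in B6-2. Others of this start region, also read in some mice only, ranged from 95% at 109540102 in B6-1 to 13.3% at 109541813 in B6-2. In the last exon of Dlk1, 4 such cytosines had 46.5% in B6-1 and 65.1% in B6-2.

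The 4 shared cytosines between 204 and 284 bp beyond the Meg3 flank, which belong to none of the regions, had a mean level of 49.3% ± 6.11 (SD, n = 4).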

How the results depend on the processing

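Level differences of the domain to all cytosines and between its start regions kept their sign under every alternative run. The excess of the domain mean ranged from 9.12 points (coverage of at least 20) to 16.1 points (no flank), and that of the intermediate share from 2.48 points (coverage of at least 20) to 13 points (bounds of 10 and 90%). Pooling reads gives no share of cytosines and was not run for the latter. The Meg3 start lay above the Dlk1 start by 42.7 to 60.1 points, the highest value with both Meg3 starts, and the Meg3 upstream stretch by 72.3 to 86.4 points. No p could pass 0.05 in these designs, so they say nothing of significance. Leaving out each mouse gave 10.7 to 10.8 points for the domain mean and 5.85 to 6.46 points for the intermediate share.

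The strain difference of the domain mean changed sign to 2.34 points with reads pooled and to 3.09 points with all cytosines of each mouse; the second compares different cytosines, and the cause of the first was not tested. It ranged from -0.524 to -0.0783 points without 1 mouse. In the replicate block it was -0.301 points (exact sign-flip test over 2 pairs, p = 1), and the numbers did not pair the mice, with a correlation of deviations of -0.000207. Strain-variable members numbered 0 under all 10 alternatives, which says nothing of stability: no member differed by more than 18.5 points with all mice, and with the block, without B6-1 or without B6-2 the model called 0 of all cytosines. At a coverage of at least 20, 9 of 14 regions moved by more than the SD of the mice, the Mirg downstream flank from 25.6 to 16% and the Meg3 start from 45.1 to 47.8%. No cytosine of the domain exceeded the coverage ceiling. Depth limits single cytosines: in the Dlk1 exon Mixed-1 had 10 to 14 reads each, and no cytosine there had 20 reads in every mouse.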
